A study of Mus musculus with 6 samples.

Results

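The genes described here are the chains of the receptor for interleukin-2 (IL-2) and the proteins that carry its signal: Il2ra, Il2rb, Il2rg, Jak1, Jak3, Stat5a, Stat5b, Pim1 and Pim2. They were taken as every probe set that the array's gene table assigns to 1 of these 9 symbols alone. This gave 15 probe sets of 8 genes, out of 45037 probe sets on the array that are not controls. Il2rg is paired with no probe set in that table and was not analysed here. Another 2 probe sets are assigned to Jak3 together with a second gene and were not used.

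The arrays are 6 one-colour Affymetrix mouse arrays of CD4+ Foxp3+ regulatory T cells (Treg) taken by cell sorting from mesenteric lymph nodes at 4 to 6 weeks of age. In 1 group, 3 arrays hold induced Treg (iTreg) from Balb/c TBmc Foxp3 GFP mice given ovalbumin orally at 1% for 1 week and gated as Nrp-, that is, without neuropilin. TBmc mice are monoclonal in both lymphocyte lineages: they carry 1 ovalbumin-reactive T cell receptor and 1 B cell receptor and cannot rearrange others. In the other, 3 arrays hold total Treg of Balb/c wild-type (WT) Foxp3 GFP mice, with no feeding named. The GFP reporter marks Foxp3 in both groups, and CD25, the product of Il2ra, is not named in either gate. The TBmc genotype with its fixed receptors, the feeding and the gate differ together, so their parts in any difference cannot be told apart. The labels of 2 arrays go against their groups: WT replicate 1 carries the Nrp- cell type of the iTreg, and the strain given for iTreg replicate 1 is Balb/c alone. On its most abundant probe set Nrp1 gave a signal of 708 on WT replicate 1, against 253, 133 and 238 on the iTreg arrays and 862 and 1189 on the other WT arrays. Nothing in the labels ties replicates to separate animals, so the p-values rest on the spread from array to array, part of which may be technical.

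IL-2 is read by a receptor of 3 chains. The alpha chain, CD25, raises the affinity for IL-2 and carries no signal of its own. The beta chain binds the kinase JAK1 and the common gamma chain binds JAK3, and the pair of kinases phosphorylates the transcription factors STAT5A and STAT5B. Treg make little or no IL-2 themselves, express CD25 at a high level and depend on IL-2 from other cells for their survival and for Foxp3. STAT5 in turn raises Il2ra, the kinases of the PIM family, which promote growth and survival, and inhibitors of the SOCS family, which damp the signal.

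The values are MAS5 signals, a linear measure of how bright the probes of a probe set are. Background was judged from 27 control probe sets for bacterial genes that were not spiked in, none of which exceeded a signal of 28.5. All 15 member probe sets lay above that on every array. Differences are iTreg minus WT Treg on the scale of log2(signal + 16), with standard errors and 95% intervals from limma, which was fitted to the 27022 probe sets whose mean level was at or above the 40th percentile; all 15 member probe sets were among them. P-values are two-sided and adjusted by Benjamini-Hochberg over all 27022, and a difference passed at an adjusted p under 0.05.

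None of the 15 probe sets passed. Over all probe sets tested, limma called 0.0037% higher and 0.0222% lower in iTreg, so few calls were made anywhere. At an unadjusted p under 0.05, 3 member probe sets were lower and 1 was higher, that is, 20.0% and 6.67% of the 15, where the shares over all probe sets were 3.77% and 2.44%. The 3 lower ones were both probe sets of Il2ra and 1 of Il2rb, and the higher one was that of Jak3. The groups did not overlap in 2 probe sets that were lower in iTreg and 1 that was higher, beside 6.89% and 4.54% of all probe sets. Over the 15 the median difference was 0.035, with 9 positive and 6 negative, and over all probe sets it was -0.022. Both Il2ra probe sets and 1 of the 2 Il2rb probe sets thus lay lower in iTreg before adjustment, Pim1 had negative differences without a call, and the JAK and STAT5 probe sets had differences above 0.

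**Figure D1:**
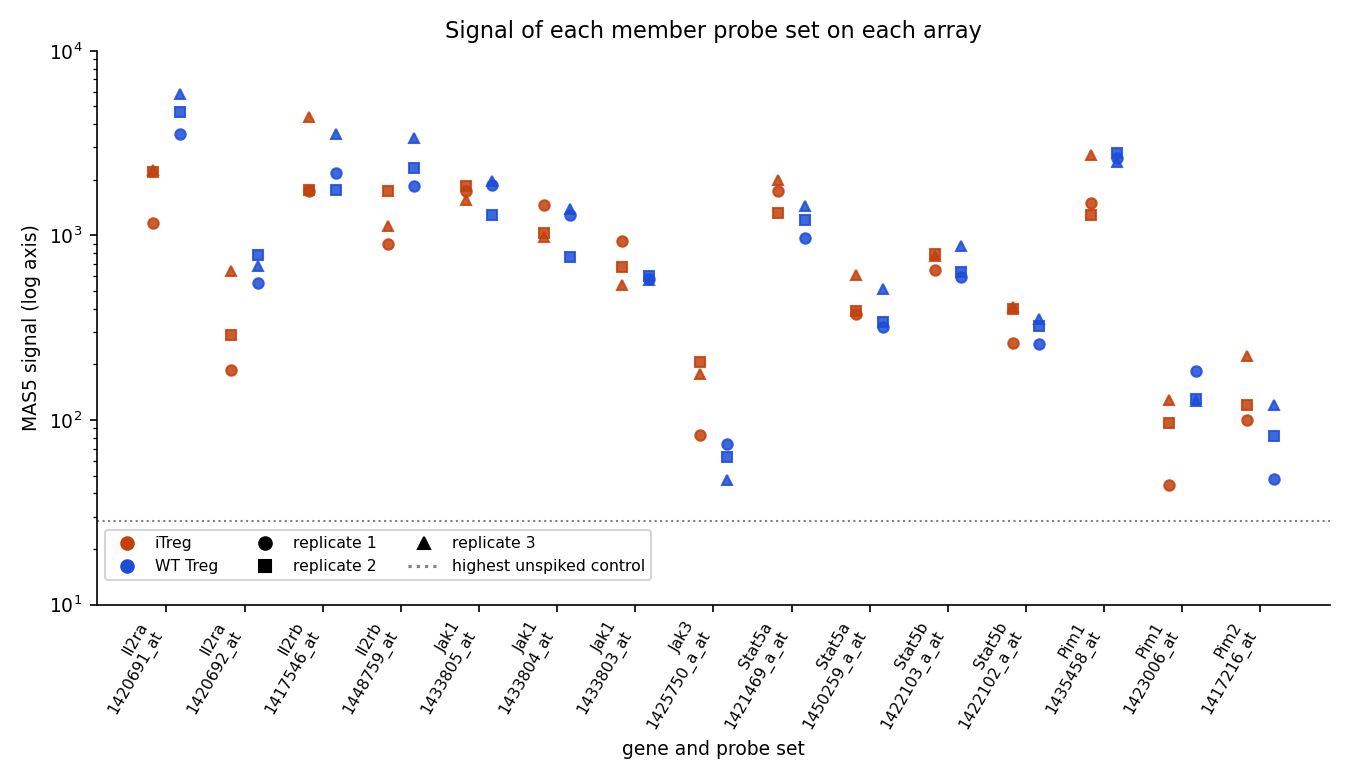
MAS5 signal (log axis) of each of the 15 probe sets, by gene and probe set, on each array; orange points are iTreg, blue points are WT Treg, the shape gives the replicate number, and the dotted line is the highest unspiked control at 28.5. For Il2ra 1420691_at the 3 iTreg arrays, from 1169 to 2256, lie below the 3 WT arrays, from 3537 to 5860, whereas most other members overlap.

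Il2ra, the gene of CD25, had the smallest p-value of the members. Its brighter probe set, 1420691_at, gave signals of 1169, 2191 and 2256 in iTreg replicates 1, 2 and 3 and of 3537, 4656 and 5860 in WT replicates 1, 2 and 3. Every iTreg array was lower than every WT array, and the WT array with the doubtful label was the lowest of the WT arrays and still above all iTreg. On average the signal was 1872 ± 609 (SD, n = 3) in iTreg and 4684 ± 1162 (SD, n = 3) in WT Treg. The log2 difference was -1.35 (standard error 0.32, interval from -2.04 to -0.65), which puts WT Treg 2.54-fold above iTreg, with an interval from 1.57-fold to 4.12-fold. It did not pass (limma adjusted p = 0.370, from 0.142 to 0.990 over the alternatives) and ranked 86th by p-value among the 27022. The signal of iTreg was still far above the unspiked controls, so CD25 message was present in both groups. In bulk RNA, fewer cells that express a gene and less message per cell cannot be told apart.

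The dimmer probe set of Il2ra, 1420692_at, gave signals of 188, 288 and 643 in iTreg against 554, 782 and 678 in WT Treg. Here iTreg replicate 3 lay above WT replicate 1, and the other iTreg arrays lay below all WT arrays, so the groups overlapped. The log2 difference was -0.98 (standard error 0.41, interval from -1.87 to -0.09, limma adjusted p = 0.775). Both probe sets were lower in iTreg in each of the 3 comparisons of arrays with the same replicate number. Leaving out 1 array moved the difference of 1420692_at from -0.60, without iTreg replicate 1, to -1.45, without iTreg replicate 3. That of 1420691_at ranged from -1.53 to -1.04.

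Il2rb encodes the signalling beta chain, which IL-15 shares with IL-2, and its probe sets gave unlike differences. On 1448759_at the signal was 901, 1742 and 1120 in iTreg against 1852, 2329 and 3360 in WT Treg. The groups did not overlap, although iTreg replicate 2 came close to WT replicate 1. The log2 difference was -1.00 (standard error 0.33, interval from -1.71 to -0.29), and WT Treg were 2.01-fold higher (limma adjusted p = 0.670). On 1417546_at the signal was 1747, 1765 and 4351 in iTreg against 2190, 1763 and 3562 in WT Treg. What stood out there was the replicate 3 array of each group, above all other arrays, and not the groups. The log2 difference of 1417546_at was -0.01 with an interval from -0.85 to 0.83 (limma adjusted p = 0.998), so it was compatible with either direction; it was 0.08 when arrays were scaled to a common median.

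The disagreement between the Il2rb probe sets was itself measured within each array. The log2 ratio of 1448759_at to 1417546_at was -0.94, -0.02 and -1.94 in iTreg against -0.24, 0.40 and -0.08 in WT Treg. The iTreg arrays varied widely, and iTreg replicate 2 lay within the range of the WT arrays. The mean ratio differed by -0.99 between the groups (two-sided exact permutation p = 0.300, where 3 arrays against 3 cannot give less than 0.10). Over the 8 pairs of probe sets of one gene among the members, the ratios of the groups did not separate in any pair, and the smallest exact permutation p was 0.300, for this pair and for that of Stat5a alike (0.80 after Benjamini-Hochberg adjustment over the 8). These ratios were computed after the disagreement was seen.

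**Figure D2:**
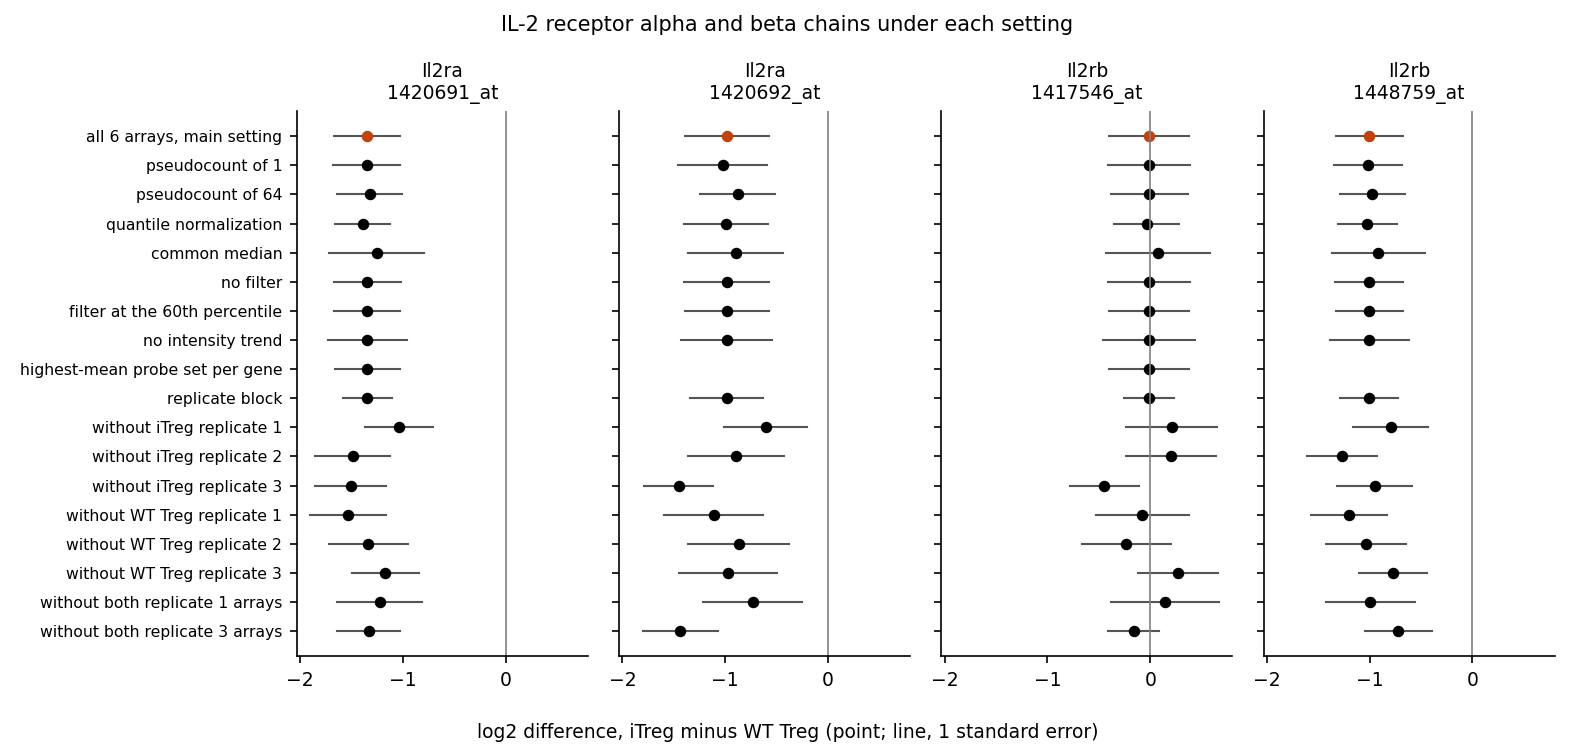
Log2 difference (iTreg minus WT Treg) of the 4 probe sets of Il2ra and Il2rb under each setting; points are estimates, lines are 1 standard error, and orange marks the setting of the text. The difference of 1420691_at lies between -1.53 and -1.04 throughout and that of 1448759_at between -1.27 and -0.72, while that of 1417546_at lies on both sides of 0.

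Jak1, the kinase bound to the beta chain, has 3 probe sets, and the groups overlapped on each. On 1433805_at the signal was 1738, 1842 and 1562 in iTreg against 1882, 1293 and 1970 in WT Treg, for a log2 difference of 0.02 with an interval from -0.58 to 0.62. The differences of 1433804_at and 1433803_at were 0.03 (interval from -0.65 to 0.72) and 0.24 (interval from -0.41 to 0.90). All 3 had overlapping groups and limma adjusted p-values from 0.929 to 0.996. A change of Jak1 of more than about 2-fold lies outside all 3 intervals.

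Jak3, the kinase of the common gamma chain, had the largest positive difference of the members. Its probe set 1425750_a_at gave signals of 83.0, 206 and 178 in iTreg against 74.4, 63.0 and 47.2 in WT Treg. All iTreg arrays were above all WT arrays, with iTreg replicate 1 only just above WT replicate 1. The log2 difference was 1.08 (standard error 0.44, interval from 0.13 to 2.03), or 2.11-fold (limma adjusted p = 0.775, from 0.613 to 0.998 over the alternatives). The signal is low, and with it the size depends on the pseudocount: the difference was 1.25 with a pseudocount of 1 and 0.77 with 64. It was 1.43 without iTreg replicate 1 and 0.85 without iTreg replicate 2.

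Jak3 is expressed in other blood cells as well as in T cells, and the summed signals of some of their markers were also higher in iTreg. Of 8 listed markers of natural killer cells, 7 were measured, and their summed signal was 271 to 486 in iTreg and 149 to 245 in WT Treg. Most of that sum was Eomes (248, 179 and 364 against 99.8, 129 and 51.0), which T cells can also express; the natural killer receptor gene Ncr1 was at most 8.17 on any array. The 7 myeloid markers summed to 131 to 240 in iTreg and 47.2 to 63.0 in WT Treg. Over all 6 arrays, 1 of them averaged above the highest unspiked control. In iTreg alone S100a9, S100a8 and Lyz2 did so, at means of 54.4, 42.0 and 37.3. On the single iTreg arrays S100a8 gave 16.8, 91.2 and 18.1 and Lyz2 gave 44.6, 44.2 and 23.1. Only S100a9 exceeded that control on every iTreg array. The WT means of S100a9, S100a8 and Lyz2 were 5.11, 7.92 and 13.25, and the groups did not overlap. For S100a8 the lowest iTreg signal, 16.8, and the highest WT signal, 12.7, both lay within the range of the unspiked controls. Csf1r, Cd14, Itgam and Adgre1 averaged below that control in both groups. The B cell markers overlapped between groups, from 734 to 1304 against 361 to 855 for 5 measured of 6, nearly all of it Ighm; Ms4a1 and Pax5 were at most 10.9 and 7.01. The part of such other cells in the result for Jak3 was not tested.

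Stat5a and Stat5b, neighbouring genes that encode closely related transcription factors, had small positive differences with overlapping groups on all 4 of their probe sets. Stat5a 1421469_a_at gave signals of 1731, 1328 and 2006 in iTreg against 963, 1219 and 1440 in WT Treg. Of the iTreg arrays, 2 lay above all WT arrays, and iTreg replicate 2 lay below WT replicate 3. The log2 difference was 0.48 (standard error 0.29, interval from -0.15 to 1.10, limma adjusted p = 0.866). The other probe set of Stat5a, 1450259_a_at, gave 375, 391 and 611 against 321, 341 and 516, a log2 difference of 0.21 with an interval from -0.52 to 0.95. In both probe sets each iTreg array was above the WT array of the same replicate number.

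For Stat5b, 1422103_a_at gave 652, 790 and 778 in iTreg against 593, 637 and 881 in WT Treg, and 1422102_a_at gave 262, 400 and 411 against 260, 324 and 352. The groups overlapped in both. The log2 differences were 0.09 (interval from -0.55 to 0.72) and 0.17 (interval from -0.55 to 0.89), with limma adjusted p-values of 0.978 and 0.961. All 4 STAT5 probe sets have the name ending _a_at, which Affymetrix uses for probes shared by transcripts of one gene. Message levels of STAT5 say nothing about its phosphorylation, which carries the IL-2 signal.

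The kinase genes Pim1 and Pim2, both known as STAT5 targets, had differences of opposite sign, none of which passed. Pim1 1435458_at gave signals of 1506, 1296 and 2728 in iTreg against 2640, 2811 and 2483 in WT Treg. The WT arrays lay close together, and iTreg replicate 3 lay among them while the other iTreg arrays were lower. The log2 difference was -0.59 (standard error 0.31, interval from -1.26 to 0.08, limma adjusted p = 0.848). It was -0.91 without iTreg replicate 3 and -0.38 without iTreg replicate 2.

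The dimmer Pim1 probe set, 1423006_at, gave 44.7, 96.6 and 129 in iTreg against 184, 129 and 126 in WT Treg, for a log2 difference of -0.69 with an interval from -1.64 to 0.26 (limma adjusted p = 0.870). As with 1435458_at, iTreg replicate 3 lay within the WT range. The difference of 1423006_at was -0.33 without iTreg replicate 1, -0.17 without both replicate 1 arrays and -1.04 without both replicate 3 arrays. Pim2 has 1 probe set, 1417216_at, with signals of 99.9, 120 and 221 in iTreg against 48.0, 82.4 and 121 in WT Treg. Each iTreg array was above the WT array of the same number, but the groups overlapped. Its log2 difference was 0.71 with an interval from -0.28 to 1.69 (limma adjusted p = 0.870). Leaving out iTreg replicate 3 gave 0.40, WT replicate 1 gave 0.42, and WT replicate 3 gave 0.97. Whether Pim1 and Pim2 differ from each other in response was not tested.

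**Figure D3:**
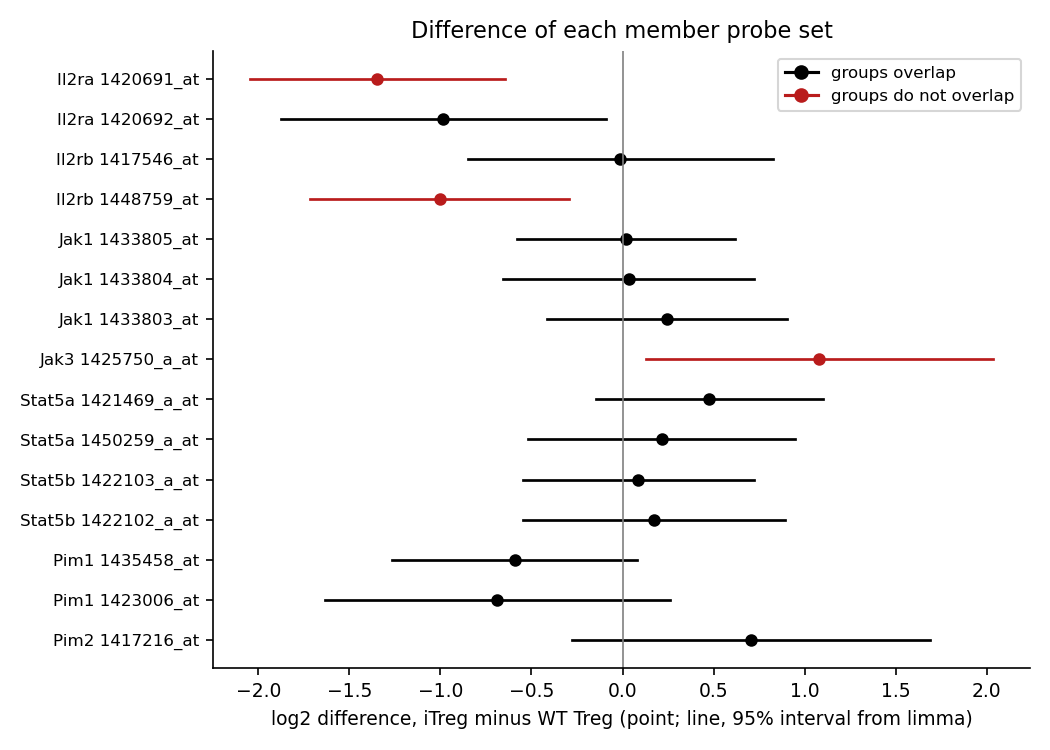
Log2 difference (iTreg minus WT Treg) of the 15 probe sets; points are limma estimates, lines are 95% intervals, and red marks the 3 probe sets whose groups do not overlap. The intervals of both Il2ra probe sets and of Il2rb 1448759_at lie below 0 and that of Jak3 above it, before any adjustment for the number of probe sets tested.

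Arrays with replicate number 3 were high for several members in both groups. Of the 15 probe sets, 6 were highest on the replicate 3 array in iTreg and in WT Treg alike: Il2ra 1420691_at, Il2rb 1417546_at, both of Stat5a, Stat5b 1422102_a_at and Pim2. The share of all probe sets with this pattern was not computed, so the count describes the members alone. The 2 replicate 3 arrays had the lowest median signals of their groups (24.3 in iTreg and 21.1 in WT, against 26.8 to 32.3 on the other arrays) and the brightest spiked controls (a median signal of 5919 and 6693, against 3670 to 5314). The log2 ratio of 3′ to 5′ signals of Gapdh, a measure of RNA quality, was 3.06, 2.48 and 3.38 in iTreg against 2.28, 2.53 and 2.34 in WT Treg. It was higher on 2 iTreg arrays than on any WT array. The same ratio for beta-actin overlapped, from -0.00 to 0.38 in iTreg and from 0.14 to 0.32 in WT Treg. The part of these array features in the differences above was not tested; Il2ra 1420691_at differed by -1.33 and Il2rb 1448759_at by -0.72 without both replicate 3 arrays.

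The sorted cells carried T cell and Treg message on all arrays. The 5 measured of 7 T cell markers were all above the unspiked controls, with sums of 12120 to 14900 in iTreg and 11620 to 17230 in WT Treg. Of 9 Treg markers, 8 were measured and their sum was lower in iTreg (11680 to 14410, against 18010 to 22030), with Il2ra, the gene described here, and Nrp1, used for the gate, among them. Foxp3 itself is read by 1 probe set with signals of 31.7, 54.6 and 15.6 in iTreg against 26.2, 45.7 and 9.16 in WT Treg, close to the unspiked controls, so the array says little about the transcription factor that defined the sort. Foxp3 is a STAT5 target, and its log2 difference was 0.23 (interval from -0.74 to 1.21).

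Other genes of the pathway were grouped in 7 lists of 64 genes in all, of which 61 had a probe set of their own and 53 were tested, each on its brightest probe set. None passed (limma); at an unadjusted p under 0.05, 8 were lower and 4 higher in iTreg, or 7 and 4 of the 50 with means above the highest unspiked control in both groups. Among all 11308 genes tested in this way limma called 0 higher and 0.0265% lower, and at the unadjusted p 4.14% were lower and 2.72% higher. The groups did not overlap in 7 genes that were lower (6 of the 50) and 3 that were higher, beside 7.67% and 5.08% of all genes. The median difference was -0.12 over the 53 and -0.028 over all genes.

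The ligands of the common gamma chain family, Il2, Il4, Il7, Il9, Il15 and Il21, were not measurable: none of the 6 reached a signal above 22.4 on any array, within the range of the unspiked controls. Il2 gave 3.20, 22.4 and 9.28 in iTreg against 9.60, 14.3 and 13.5 in WT Treg. Of the 5 other receptor subunits that pair with the gamma chain, 4 were tested, 3 with negative differences and 1 with a positive one. Il7r, the IL-7 receptor alpha chain, gave signals of 1441, 1295 and 590 in iTreg against 3730, 1425 and 2580 in WT Treg on 1448575_at. Although WT replicate 2 lay just below iTreg replicate 1, the mean was lower in iTreg, by a log2 difference of -1.20 (standard error 0.41, limma adjusted p = 0.706). The second Il7r probe set differed by -0.86. The subunits Il4ra, Il15ra and Il21r differed by -0.59, -0.19 and 0.40 on their brightest probe sets, all with overlapping groups. Their other probe sets gave unlike values, -1.03 for Il15ra and from -0.19 to 0.13 for 2 of Il4ra.

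Among the other JAK and STAT genes, 5 of 6 tested had positive differences on their brightest probe sets, beside 5364 of all 11308 genes. Their median was 0.29. Tyk2, at 0.34, differed by -1.05 on its other probe set, while the other probe sets of Stat2, Stat3 and Stat6 had positive differences. Jak2, the kinase of receptors such as that for interferon gamma and not of the IL-2 receptor, gave 1641, 1314 and 1849 in iTreg against 1190, 796 and 989 in WT Treg on 1421066_at. Those groups did not overlap, and the log2 difference was 0.69 (standard error 0.28, limma adjusted p = 0.775). On the other Jak2 probe set the difference was 0.43, with overlapping groups. Adaptors and the PI3K branch, through which the receptor also signals, held 8 tested genes, 0 of them at an unadjusted p under 0.05, with a median of -0.064. The smallest p in that list was that of Pik3r1, the regulatory subunit of PI3K (-0.40).

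The brakes on JAK-STAT signalling held large differences of both signs. Socs2, a STAT5 target that inhibits cytokine and growth hormone receptors, gave 161, 178 and 260 in iTreg against 622, 831 and 1124 in WT Treg on 1418507_s_at. All iTreg arrays were far below the lowest WT array. Its log2 difference was -2.01 (standard error 0.34, limma adjusted p = 0.123, from 0.0758 to 0.561 over the alternatives), and the second brightest probe set, 1449109_at, gave -1.64. Socs2 has 6 probe sets, and the dimmer ones gave unlike values. On 1441476_at the difference was -1.21 without overlap. On 1438470_at, 1442586_at and 1446085_at it was -0.13, -0.19 and -0.33, with overlapping groups. Cish, a further inhibitor and a standard readout of STAT5 activity, had a smaller difference: its signal was 483, 486 and 1689 in iTreg against 639, 840 and 1200 in WT Treg. Both iTreg replicates 1 and 2 lay below all WT arrays and iTreg replicate 3 lay above them. The log2 difference of Cish was -0.23 with an interval from -1.21 to 0.76, and it was -0.81 without iTreg replicate 3.

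Socs3, an inhibitor of receptors that use gp130, went the other way. On 1455899_x_at its signal was 1331, 962 and 1948 in iTreg against 687, 399 and 389 in WT Treg. The groups did not overlap, and the log2 difference was 1.49 (standard error 0.35, limma adjusted p = 0.348). The other Socs3 probe sets differed by 1.20 and 0.52, and the name ending _x_at marks probes that may match other transcripts. Of the 11 brakes tested, 8 had negative and 3 positive differences.

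The list of genes induced by STAT5 in T cells was written down with earlier results of these data known. In it 17 of 23 genes had negative differences, Il10 among them, with a median of -0.33. Of the 23, 21 had means above the highest unspiked control in both groups, all but Foxp3 and Il10. Negative differences were seen in 16 of the 21, with a median of -0.33, beside 5944 of all 11308 genes tested. Of these 21, at an unadjusted p under 0.05, 6 were lower and 1 was higher, beside 4.14% and 2.72% of all genes. Without overlap 5 were lower, beside 7.67% of all genes. Socs2, Tnfrsf4 and Gpr83 had the smallest p of the 21. Tnfrsf4, the costimulatory receptor OX40, gave 321, 326 and 394 in iTreg against 722, 762 and 1202 in WT Treg, and its log2 difference was -1.30 (standard error 0.31, limma adjusted p = 0.377). Gpr83, a surface receptor typical of Treg, gave 1429, 1646 and 1989 against 2648, 3606 and 3914, a log2 difference of -0.99 (limma adjusted p = 0.536), and -1.41 on its other probe set. Both were lower on every iTreg array than on any WT array.

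Il10, an anti-inflammatory cytokine, gave signals of 83.7, 36.3 and 36.0 in WT Treg, while its iTreg signals of 3.74, 0.41 and 6.03 lay within the range of the unspiked controls. It entered the fit through the WT arrays alone, so no size is given for its difference. The others of the 21 at that p, named after their values were seen, were Tnfrsf18 (-0.99), Myc (-1.08) and Cdk6 (-1.07), lower in iTreg, and Gzmb (1.51), the cytotoxic protease granzyme B, higher. The groups overlapped for Cdk6 and Gzmb. Other Cdk6 probe sets differed by -1.28 to -0.39. Gzmb gave 215, 76.9 and 442 in iTreg against 154, 32.2 and 36.3 in WT Treg, its lower WT signals being close to the unspiked controls. The survival genes Bcl2 and Mcl1 and the cyclin gene Ccnd2, named likewise after their values were seen, differed by -0.12, 0.04 and -0.064. Several of these genes, Gpr83, Tnfrsf4 and Tnfrsf18 among them, are common Treg genes under other factors too, so the list is no specific readout of STAT5.

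Of the genes that STAT5 is known to hold down, 4 were tested and 3 had negative differences. Bcl6, the transcription factor of follicular helper cells, was the one with a positive difference, at 585, 329 and 454 in iTreg against 215, 233 and 312 in WT Treg on 1421818_at. The iTreg arrays were all above the WT arrays, by a log2 difference of 0.79 (standard error 0.34, limma adjusted p = 0.786), and by 0.48 with overlap on the other probe set. Il7r, in this list as well, was lower, so the list had no common direction.

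**Figure D4:**
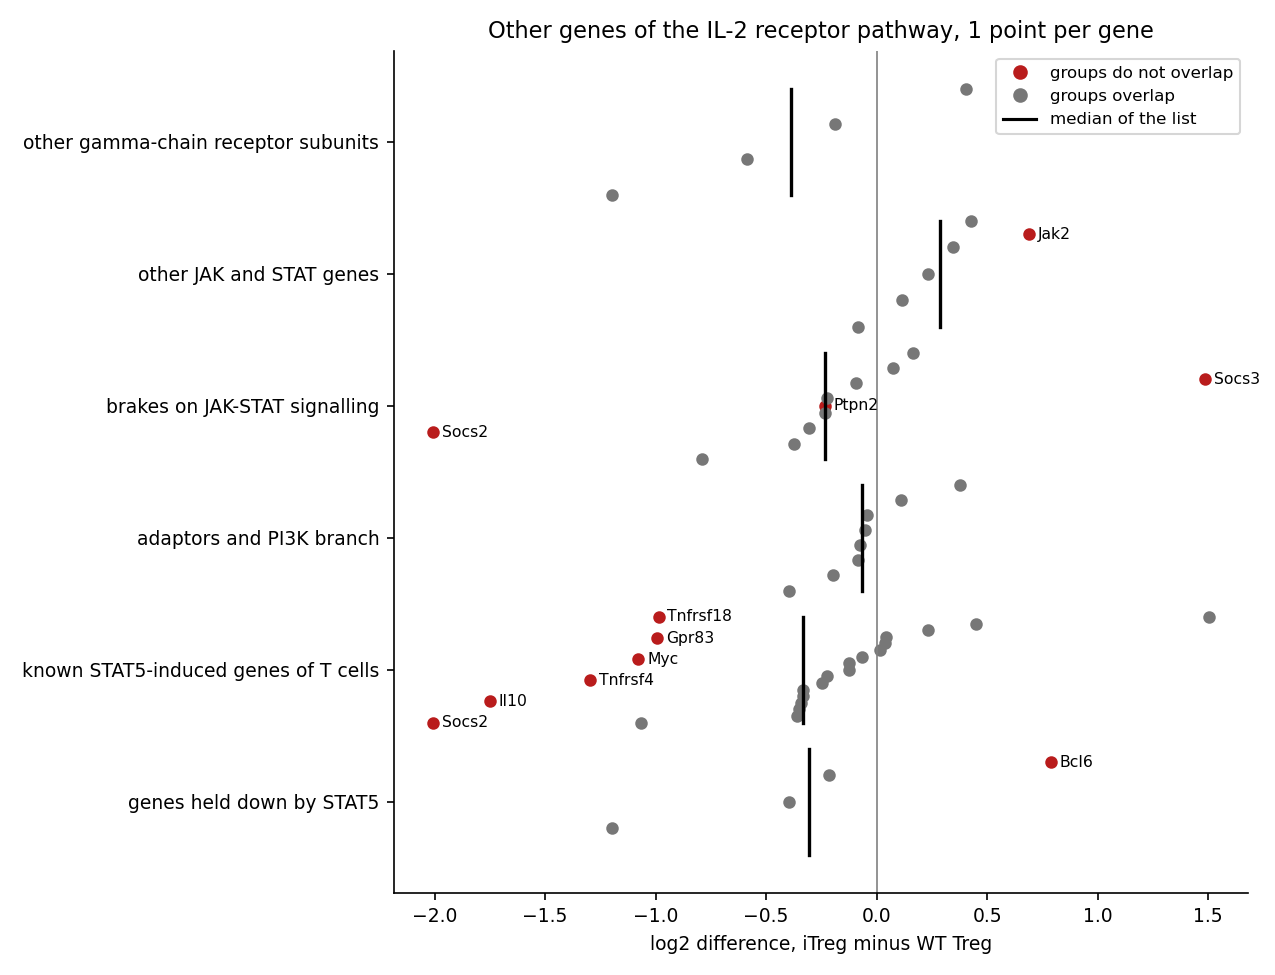
Log2 difference (iTreg minus WT Treg) of the tested genes of 6 pathway lists, 1 point per gene on its brightest probe set; red points are genes whose groups do not overlap, black lines are list medians, and vertical position within a list has no meaning. Socs2 lies at -2.01 and Socs3 at 1.49. Of the genes listed as STAT5-induced, 17 of 23 lie below 0, or 16 of the 21 above the unspiked controls in both groups. The point of Il10 has iTreg signals at background and gives no measured size.

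The profiles most like those of single members over the 6 arrays were found by the root mean square difference of log2 values, each centred on its own mean. For Il2ra 1420691_at they were Cdk6 on 1435338_at (0.137), the scaffold protein gene Ahnak (0.152) and Trim35 (0.158). Cdk6, a cell cycle kinase, had signals of 93.8, 167 and 194 in iTreg against 342, 345 and 449 in WT Treg on that probe set. Ahnak had 1531, 2500 and 2375 against 3693, 4942 and 5393, so both had iTreg replicate 1 lowest, as Il2ra had. For Il2rb 1417546_at they were Txnrd2 (0.096), the translation factor gene Eif4a1 (0.104) and Cited2 (0.116), which were likewise highest on the replicate 3 arrays. For Jak3 they were the myosin gene Myo10 (0.119), Synj1 (0.145) and Gm34006 (0.152). With 6 arrays that share a scaling and differ in brightness, such likeness is a description of these arrays alone.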

How the data were processed

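Groups and replicate numbers came from the sample titles. The authors deposited MAS5 intensity signals on a linear scale, per the submitters' processing notes; the MAS5 version and a genome build are not given in the sources used here. Per the labels' protocols, total RNA was isolated by Trizol and carried a biotin label. Each array had a trimmed mean of 150.0 (2% off each end), so arrays had been brought to one level before deposit.

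The gene table gave 34945 probe sets 1 symbol, 932 several and 9160 none. Signals were fitted as log2(signal + 16) with limma 3.58.1 in R 4.3.3 (lmFit, eBayes with an intensity trend), over all non-control probe sets at or above the 40th percentile of mean level, whether or not they had a symbol. The fit was tested on simulated data with planted changes larger than any difference of the members. That test therefore does not show whether differences of the members' size could be called. Pathway genes were read on their brightest probe set. Named were all members, Cish, Socs2, Il7r, Foxp3, Nrp1, up to 4 genes per list with the smallest p-values among those without overlap and with p under 0.05 (else the 1 with the smallest p), and the 3 closest profiles per member with separate groups and for Il2ra and Il2rb. The members and lists were chosen with earlier results of these data known. With 3 arrays a group, the number of arrays limits the precision. Alternatives were pseudocounts of 1 and 64, quantile normalization, a common median, no filter or a 60th percentile filter, no trend, one probe set per gene, a block for the replicate number, and fits without each single array or without both replicate 1 or both replicate 3 arrays.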

Additional observations from a re-analysis of the deposited data

How the results depend on the processing

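In each of the 17 alternatives limma called 0 member probe sets and 0 pathway genes. Its calls over all probe sets ranged from 0 to 9, against 7 in the main setting. They were 0 without iTreg replicate 1, WT replicate 2 or WT replicate 3, and also without both replicate 1 or both replicate 3 arrays. Of the 15 member probe sets, 10 kept their direction under every alternative run on them, both of Il2ra included. The other 5 had differences from -0.01 to 0.21 with all arrays. Il2rb 1417546_at was 0.079 with a common median and 0.14 without both replicate 1 arrays, and Jak1 1433804_at was -0.037 without both replicate 1 arrays. Stat5a 1450259_a_at, at 0.21 with all arrays, reversed only without iTreg replicate 3. Leaving out 1 array moved Il2rb 1417546_at from -0.45 to 0.27, Jak1 1433805_at from -0.17 to 0.13, Jak1 1433804_at from -0.23 to 0.20, Stat5a 1450259_a_at from -0.0037 to 0.42, Stat5b 1422103_a_at from -0.023 to 0.26, Stat5b 1422102_a_at from 0.052 to 0.37, Jak1 1433803_at from 0.037 to 0.43 and Cish from -0.81 to 0.072. The number of members without overlap was 3 with all arrays, 8 without WT replicate 3 and 7 without iTreg replicate 3 (11.4%, 20.8% and 19.8% of all probe sets). Without any other single array it was 4. The share of all probe sets was not computed there, so this count cannot be read as a change. The number was 5 without both replicate 1 arrays and 11 without both replicate 3 arrays, where 32.6% and 32.8% of all probe sets do not overlap. The cause was not tested. The same replicate numbers did not pair the arrays by the criterion used: deviations from the group means correlated by 0.191, 0.037 and 0.118 for numbers 1, 2 and 3, not all above 0.1, although each array correlated best with its own number. With the replicate block, Il2ra 1420691_at had the same difference of -1.35 at an adjusted p of 0.142 (limma), and calls over all probe sets were 3. Low signals limit Jak3, Pim2 and the second Pim1 probe set.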
